A study of Mus musculus with 12 samples.

Results

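The 10 transcripts described here belong to the circadian clock, and all 10 were found by symbol among the 23337 gene symbols of both count tables. They were listed in advance as a positive arm (Arntl, Npas2 and Clock), 2 repressors that peak with it or shortly before it (Cry1 and Nfil3), and 5 outputs of the opposite phase (Dbp, Tef, Nr1d1, Per2 and Per3). RNA was taken from peeled urothelium, the epithelial lining of the urinary tract, of 12 mice: Stag2-WT and Stag2-KO animals, all fed TMX in the diet for a week to induce the deletion and sampled 1 week or 1 month from its first day, with 3 libraries in each of the 4 groups. The controls thus carry the treatment too. The promoter that drives the deletion, the age and sex of the animals, and the hour at which they were killed are not given in the sources used here. Stag2 (chromosome X) encodes a part of the cohesin ring, which holds sister chromatids together and shapes chromatin loops. The 10 genes were chosen by their KO-against-WT values in these same libraries at both times, so those values are a description that supports nothing further, and p-values for other genes measure only the spread between these libraries.

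The mammalian clock is a transcriptional feedback loop that runs in nearly every tissue. BMAL1 (the product of Arntl) pairs with CLOCK or NPAS2 and activates genes through E-boxes. The PER and CRY proteins, made from such targets, block that activation, and REV-ERBα (Nr1d1) represses Arntl through ROR elements. DBP and TEF activate genes through D-boxes and NFIL3 represses through the same sites, so that D-boxes link the loops as well. In mouse peripheral tissues Nr1d1 peaks first, followed by Dbp, Tef and Per3, then Per2, then Cry1 and Nfil3, and last Arntl, Npas2 and Clock. A transcript's level in an animal killed once thus depends on the hour, and neither phase nor amplitude can be read from a single collection.

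The elements through which the loops act could be seen in the RefSeq promoter windows of GRCm38.p6 (the build mm10 is named in the submitters' processing notes), each running from 250 bases before to 50 after a start site. Windows were found for 9 of the 10 genes, 13 windows in all, and Per2 had no entry. Both strands were searched for the E-box CACGTG, which 7.15% of all 32851 windows hold, for the D-box TTATGTAA, which 0.938% hold, and for the ROR element, which 0.384% hold. Matches were found in 4 genes and are shown because they are the kinds of element through which the opposed sets are known to act on each other: D-boxes in Per3, a ROR element in Arntl, and E-boxes in Cry1 and Tef. No match lay in the windows of Npas2, Clock, Nfil3, Dbp and Nr1d1. Capitals mark the match.
Per3, D-boxes at -205 and -158, chr4:151044804-151044882, minus strand: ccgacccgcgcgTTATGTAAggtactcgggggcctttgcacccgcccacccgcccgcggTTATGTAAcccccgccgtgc
Arntl, ROR element at 27 after the start, chr7:113207528-113207557, plus strand: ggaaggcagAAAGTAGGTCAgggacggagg
Cry1, E-box at -60, chr10:85185097-85185126, minus strand: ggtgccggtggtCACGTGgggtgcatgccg
Tef, first start, E-box at -127, chr15:81802534-81802563, plus strand: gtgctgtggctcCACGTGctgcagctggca
Tef, second start, E-box at -138, chr15:81811264-81811293, plus strand: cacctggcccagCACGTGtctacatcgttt
These are matches of letters in short windows, and the libraries hold no measurement of binding.

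Total counts per library ran from 5580961 to 9497088, so 3 counts, the floor used here, equal 0.305 to 0.632 CPM (counts relative to the TMM-scaled library size; counting error only). All 12 urothelial markers were detected in all 12 libraries. Stag2 averaged 125 ± 23.3 CPM (SD, n = 3) in the WT libraries and 66.3 ± 6.38 in the KO libraries at 1 week, and 57.7 ± 10.9 and 32.1 ± 11.1 at 1 month, with every KO library below every WT library of its time. KO replicate 3 of 1 week stood apart, with Spearman correlations of 0.689 to 0.81 across 11575 genes with the other libraries of that time. All 3 KO libraries of 1 week and KO replicate 3 of 1 month carried Xist (6392 to 10406 counts) and at most 4 counts of 4 Y-linked genes, whereas the other 8 had at most 28 counts of Xist, so genotype and sex-linked transcripts cannot be told apart at 1 week. The labels put all libraries of 1 week in batch 1, replicates 1 and 2 of each genotype at 1 month in batch 2, and replicate 3 of each in batch 3. Within batch 3, too, genotype and sex-linked transcripts cannot be told apart. A contrast of the times is hence also a contrast of batches.

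At 1 week the 5 outputs were lower in KO than in WT, by 10.2-fold for Dbp, 5.38-fold for Per2, 3.17-fold for Tef, 2.93-fold for Nr1d1 and 2.43-fold for Per3, and for each of them all KO libraries lay below all WT libraries. Nfil3 was 3.25-fold higher without overlap, and Cry1 was 2.09-fold higher with overlap. In Arntl, Npas2 and Clock, the positive arm, the genotypes overlapped. Of all genes tested at 1 week, 13.4% were lower and 13.2% higher in KO without overlap. The genes were chosen on this contrast, so nothing is read from these counts.

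Dbp (chromosome 7), a PAR bZIP activator and among the most strongly cycling transcripts in mouse tissues, had 77.5, 102 and 51.5 CPM in the WT libraries and 7.17, 9.04 and 6.33 CPM in the KO libraries of 1 week. The KO values were close together and were the 3 lowest of the 12 libraries, from 32 to 84 counts. The fitted log2 fold change was -3.32 (SE 0.37), and it stayed between -3.59 and -3.08 over 12 alternatives.
Tef (chromosome 15), a second PAR bZIP factor, had 196, 200.3 and 176 CPM in WT and 101, 58.1 and 21.4 CPM in KO, which gave a log2 fold change of -1.63 (SE 0.53). Its WT libraries differed little, and its KO libraries were spread, with KO replicate 1 nearest to WT and KO replicate 3 the lowest of the 12. The value was -1.29 without KO replicate 3 and -2.26 without KO replicate 1.

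Nr1d1 (chromosome 11), the nuclear receptor that represses Arntl, had 90.8, 68.8 and 113 CPM in WT and 41.4, 14.9 and 36.8 CPM in KO, with a log2 fold change of -1.53 (SE 0.44). All 3 KO libraries were the lowest of the 12, and here KO replicate 2, not replicate 3, was lowest. Per2 (chromosome 1), a repressor of CLOCK and BMAL1, had 19.5, 32.8 and 18.4 CPM in WT and 3.07, 6.89 and 3.17 CPM in KO, with a log2 fold change of -2.39 (SE 0.47). Per3 (chromosome 4), its paralog with the pair of D-boxes shown above, had 31.4, 41.6 and 38.4 CPM in WT and 17.2, 7.75 and 21.0 CPM in KO, with a log2 fold change of -1.26 (SE 0.41). KO replicate 2 was again the lowest for Per3 and the highest KO library for Per2, so the 3 KO animals did not hold 1 order over the outputs.

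**Figure D1:**
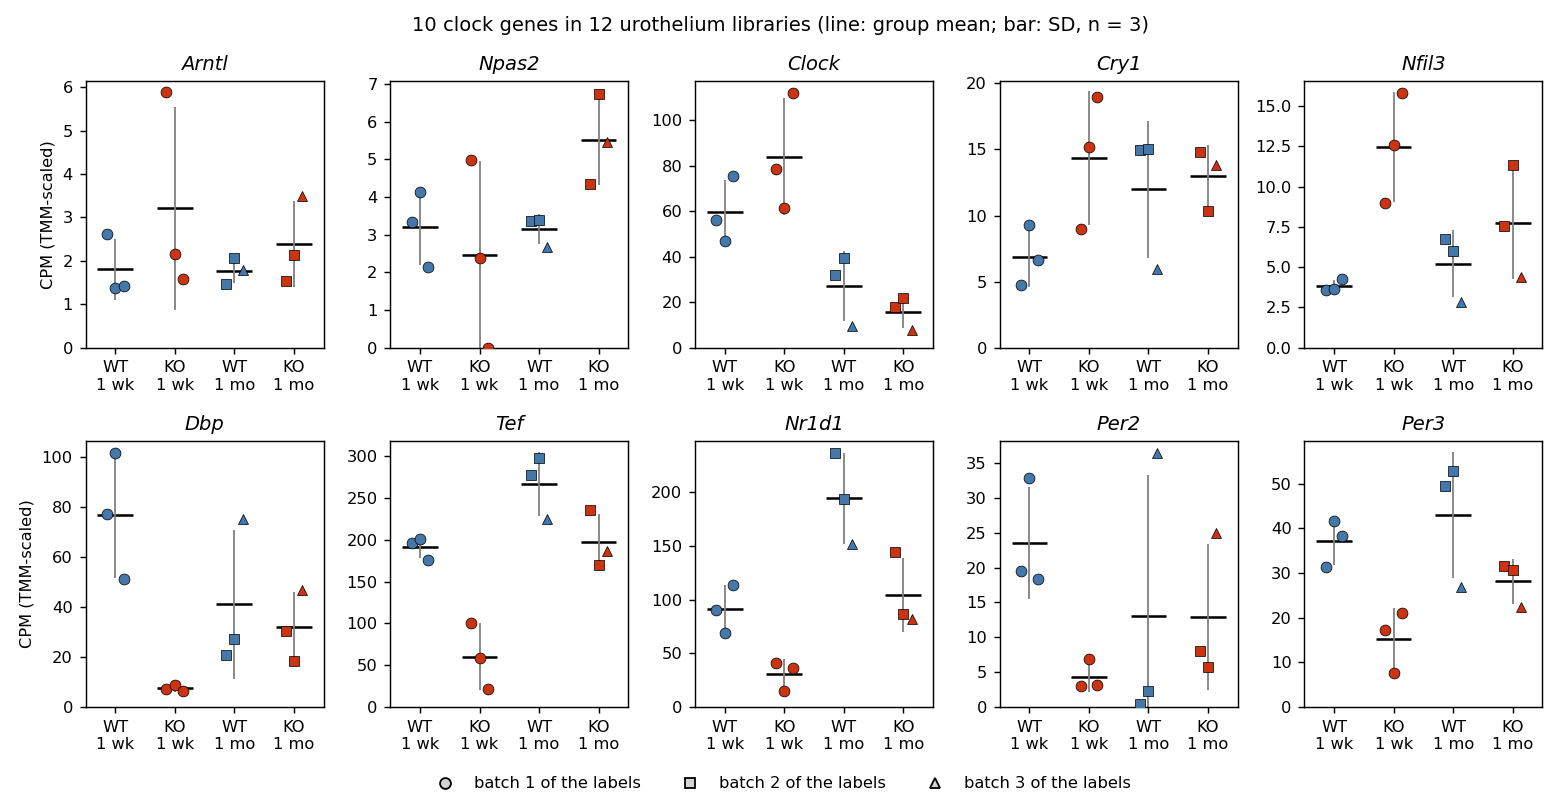
TMM-scaled CPM of each of the 10 genes (y axis, linear, own scale per panel) in the 4 groups (x axis), with a symbol per library shaped by batch, a line at the group mean and a bar of 1 SD (n = 3), cut off where it would pass below 0. The KO symbols of 1 week lie below all WT symbols of that time for Dbp, Tef, Nr1d1, Per2 and Per3 and above them for Nfil3, while Arntl, Npas2 and Clock overlap.

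On the other side, Nfil3 (chromosome 13), the bZIP repressor that competes with DBP and TEF at D-boxes, had 3.57, 3.67 and 4.26 CPM in WT and 8.96, 12.6 and 15.8 CPM in KO, which gave a log2 fold change of 1.71 (SE 0.38). The genotypes did not overlap, on 30 to 42 counts in WT and 70 to 117 in KO. Cry1 (chromosome 10), a repressor that acts late in the cycle, had 4.75, 9.28 and 6.60 CPM in WT and 8.96, 15.2 and 19.0 CPM in KO, which gave a log2 fold change of 1.08 (SE 0.43). KO replicate 1 was just below WT replicate 2, and the other 2 KO libraries were above all WT libraries.

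Clock (chromosome 5) had 56.1, 46.9 and 75.2 CPM in WT and 78.4, 61.5 and 112 CPM in KO, which gave a log2 fold change of 0.52 (SE 0.34) that was 0.21 without KO replicate 3. Arntl (chromosome 7) was low, with 2.62, 1.38 and 1.42 CPM in WT and 5.89, 2.15 and 1.58 CPM in KO, and its log2 fold change of 0.87 (SE 0.64) rested on KO replicate 1, without which it was 0.06. Npas2 (chromosome 1) was counted 28, 36 and 21 times in WT and 39, 22 and 0 times in KO, for a log2 fold change of -0.31 (SE 0.98) that was 0.18 without KO replicate 3, the library listed at 0, and -1.30 without KO replicate 1. Arntl had 8 to 46 counts per library of 1 week, and neither for it nor for Npas2 was a difference between the genotypes detectable at this depth.

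Of the 10 genes, Dbp passed an edgeR adjusted p of 0.05 over the 12754 genes tested at 1 week (adjusted p 0.0420), where 0.047% of genes were called lower and 0.0157% higher in KO. The call of Dbp was lost with library-size scaling and without any of WT replicates 1, 2 and 3 and KO replicates 1 and 2 (adjusted p 2.61e-13 to 0.348 over the alternatives), and DESeq2, which called 7.5% of all genes, called 5 of the 10: Dbp, Nfil3, Nr1d1, Per2 and Tef.

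Other measures differed between the genotypes at 1 week in the same libraries. The summed level of 20 stromal and immune markers was 3913 to 6194 CPM in WT and 6808 to 11657 in KO, 17 of the 19 markers tested were higher, and none of the 20 was at 0 in any library. The summed level of 8 proliferation genes was 35.0 to 47.4 CPM in WT and 123.7 to 737.5 in KO. Egr1, an immediate early gene that also responds to handling, had 12.9 to 21.6 CPM in WT and 43.0 to 865 in KO. Their part in the clock values was not tested, and in bulk tissue fewer cells of a type cannot be told apart from less RNA per cell.

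**Figure D2:**
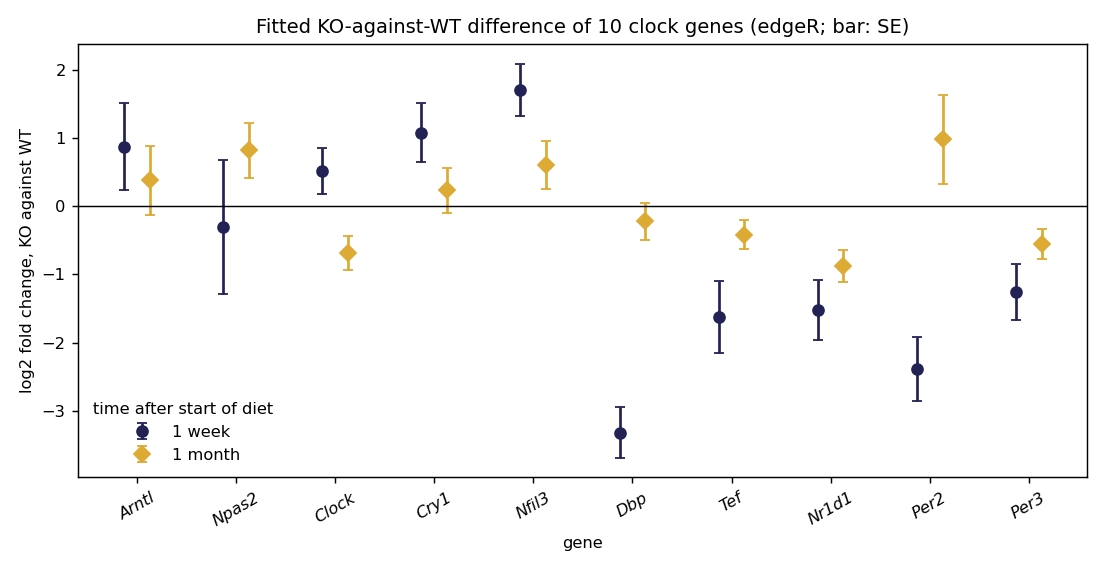
Fitted log2 fold change of KO against WT (y axis) for each of the 10 genes (x axis) at 1 week (circles) and 1 month (diamonds), with bars of 1 SE. At 1 week the outputs run from -3.32 for Dbp to -1.26 for Per3, and at 1 month all 10 values lie between -0.88 and 0.98.

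At 1 month the fitted difference between the genotypes was smaller than at 1 week for 8 of the 10 genes, the exceptions being Npas2 and Clock, and several genes differed between the batches. In the fit with batch as a covariate, the outputs ran from -0.88 (SE 0.23) for Nr1d1 to 0.98 (SE 0.65) for Per2, and the other 5 genes from -0.69 (SE 0.25) for Clock to 0.82 (SE 0.40) for Npas2. None of the 10 passed over the 12139 genes tested with edgeR, of which 0.997% were called higher and 1.22% lower, while 3 had an unadjusted p under 0.05 (21.5% of all genes) and DESeq2, which gave Arntl no adjusted p and called 6.43% of all genes, called 1, Nr1d1. In batch 2 alone, without WT replicate 3 and without KO replicate 3, edgeR called Nr1d1 and Per2, where it called 12.2%, 12.3% and 12.3% of all genes, and with no filter it called Nr1d1 beside 7.09%. Without overlap were Npas2, higher in KO, and Nr1d1, lower in KO, beside 6.42% and 6.71% of all genes in those directions. The stromal and immune sum was 10994 to 15640 CPM in WT and 8944 to 10355 in KO at this time. Of the 19 markers tested, 13 were lower and 6 higher in KO. The urothelial sum was 15149 to 31919 CPM in WT and 10888 to 16854 in KO. The part of either sum in the clock values was not tested.

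Nr1d1 had 237, 194 and 152 CPM in WT replicates 1, 2 and 3 of 1 month and 145, 86.4 and 82.4 CPM in KO. It was lower in KO within both batches, by log2 differences of -0.94 in batch 2 and -0.88 in batch 3, and it was the output that was lower without overlap at both times. Npas2 had 3.37, 3.38 and 2.68 CPM in WT and 4.35, 6.74 and 5.46 CPM in KO, on 16 to 41 counts, with differences of 0.64 and 0.96 within the batches. At 1 week Npas2 showed no such order.

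Dbp had 20.8, 27.4 and 75.4 CPM in WT and 30.3, 18.6 and 47.0 CPM in KO at 1 month. In both genotypes the batch 3 library was the highest of its group, by 1.65 on the log2 scale over batch 2 in WT and 0.98 in KO. Per2 had 2, 12 and 244 counts in WT, or 0.421, 2.25 and 36.4 CPM, and 8.06, 5.76 and 24.9 CPM in KO.
Per2 thus spread widely inside the WT group: replicates 1 and 2 were the lowest of all 12 libraries and replicate 3 was the highest. The batch 3 libraries exceeded those of batch 2 by 4.78 in WT and 1.83 in KO. The genotypes therefore differed in opposite directions within the batches, by 2.41 in batch 2 and -0.54 in batch 3, and the fitted 0.98 is a mean of both.

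Clock, Nfil3 and Cry1 were lower in the batch 3 libraries where Dbp and Per2 were higher, except Cry1 in KO. Clock had 32.0, 39.3 and 9.69 CPM in WT and 17.9, 21.7 and 7.59 CPM in KO, batch 3 minus batch 2 differences of -1.84 and -1.35. Nfil3 had 6.74, 6.01 and 2.83 CPM in WT and 7.55, 11.4 and 4.4 CPM in KO, differences of -1.10 and -1.03. Cry1 had 14.9, 15.0 and 5.96 CPM in WT and 14.8, 10.4 and 13.8 CPM in KO, differences of -1.29 and 0.15.
Arntl did not follow, at 0.03 in WT and 0.85 in KO. Batch 3 holds a single library of each genotype, and the hour of collection, the batch and the animal cannot be told apart in it. Its KO library carried Xist (7764 counts), unlike its WT library (11 counts) and the libraries of batch 2. The genotype difference within batch 3 and the batch difference in KO are thus also splits by sex-linked transcripts.

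The remaining outputs did not move with Dbp and Per2 between the batches. Tef had 277, 297 and 224 CPM in WT and 235, 169.6 and 186 CPM in KO, and Per3 had 49.5, 52.8 and 26.8 CPM in WT and 31.5, 30.6 and 22.3 CPM in KO. Batch 3 minus batch 2 was -0.36 and -0.10 for Tef, -0.92 and -0.47 for Per3, and -0.50 and -0.44 for Nr1d1. WT replicates 1 and 2 of 1 month had the highest Nr1d1, Tef and Per3 of all 12 libraries together with the lowest Per2. In the KO libraries of 1 week, by contrast, Nr1d1, Tef, Per3 and Dbp were all at their lowest ranks and Per2 was at ranks 3, 4 and 6 of 12. The 5 outputs were therefore low together in the KO libraries of 1 week and apart from each other in WT replicates 1 and 2 of 1 month. In WT replicate 3 of 1 month, Per2, Dbp, Nr1d1 and Tef were at ranks 12, 10, 10 and 9, and Per3 was at rank 5.

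**Figure D3:**
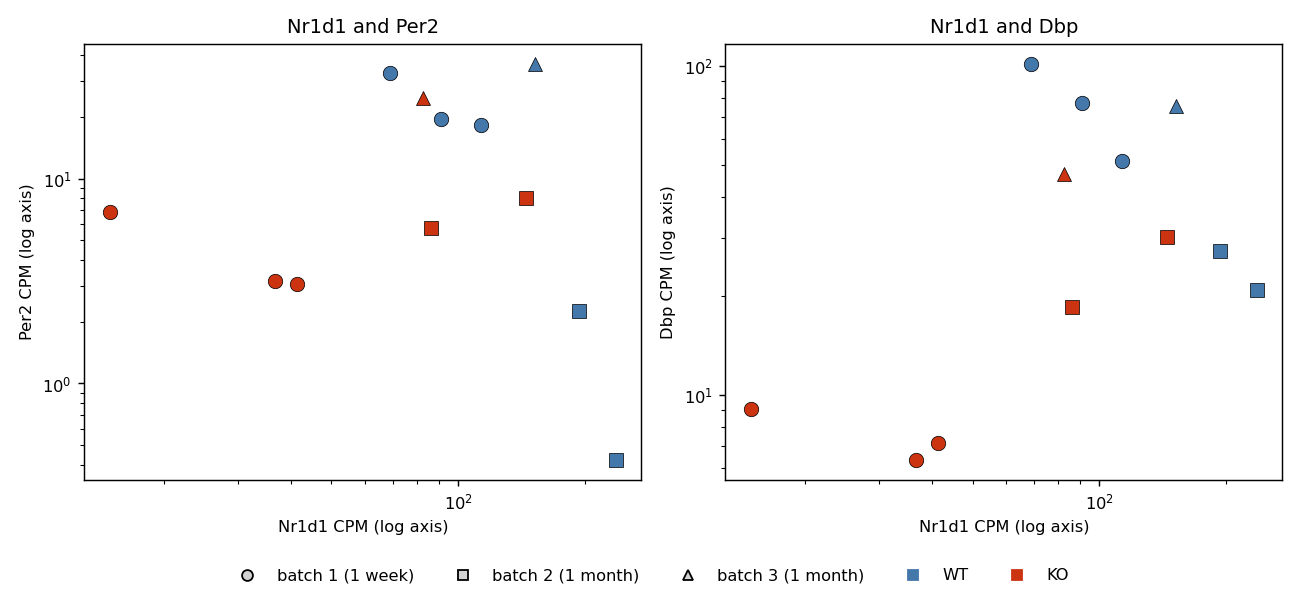
CPM of Per2 (left) and Dbp (right) against CPM of Nr1d1 in each of the 12 libraries, both axes logarithmic, coloured by genotype and shaped by batch. The KO libraries of 1 week are low on both axes, whereas WT replicates 1 and 2 of 1 month combine the highest Nr1d1 (237 and 194 CPM) with the lowest Per2 (0.421 and 2.25 CPM).

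The group means show where neighbouring groups can be separated. For Dbp they rose from 7.52 ± 1.39 CPM (SD, n = 3) in KO at 1 week through 32.0 ± 14.3 in KO and 41.2 ± 29.8 in WT at 1 month to 76.9 ± 25.1 in WT at 1 week, and among these neighbours the ranges overlapped except between KO at 1 week and KO at 1 month. Nr1d1 ran from 31.0 ± 14.2 in KO at 1 week through 91.0 ± 22.3 in WT at 1 week and 104 ± 34.8 in KO at 1 month to 194 ± 42.5 in WT at 1 month, and the middle groups overlapped. Nfil3 ran from 3.83 ± 0.377 in WT at 1 week through 5.19 ± 2.08 and 7.77 ± 3.48 at 1 month (WT, then KO) to 12.5 ± 3.43 in KO at 1 week, and every neighbouring pair overlapped. Clock was lower in all 6 libraries of 1 month than in all 6 of 1 week, with 27.0 ± 15.4 and 15.7 ± 7.31 against 59.4 ± 14.5 and 83.9 ± 25.7 CPM (WT, then KO), a contrast that is also one of batches.

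The distance between the sets was summarised in each library as the mean log2 CPM of Arntl, Npas2, Clock, Cry1 and Nfil3 minus that of the 5 outputs. It was -3.25, -3.44 and -3.25 in WT and -0.61, -0.52 and -0.89 in KO at 1 week. The other 9 libraries lay between -4.21 and -2.03, and the KO libraries of 1 week lay outside that range. The 10 genes were chosen on this contrast, so nothing is read from the separation or its size. The difference of 2.64 between the genotypes at 1 week was made of -2.12 in the mean of the outputs and 0.52 in that of the other 5 genes. It was 2.75 without KO replicate 3 and 2.35 without Dbp. At 1 month the difference was 0.38, with WT at -2.22, -2.54 and -4.21 and KO at -2.78, -2.03 and -3.04, and it was -0.23 without WT replicate 3 and 0.08 without KO replicate 2.

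**Figure D4:**
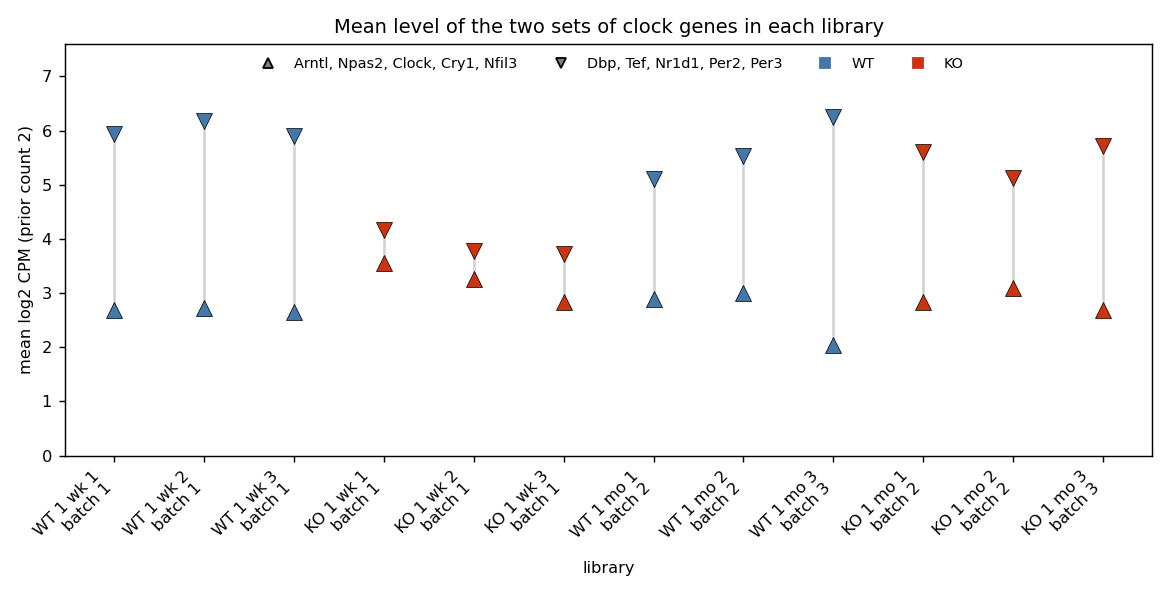
Mean log2 CPM (y axis, prior count of 2) of Arntl, Npas2, Clock, Cry1 and Nfil3 (upward triangles) and of Dbp, Tef, Nr1d1, Per2 and Per3 (downward triangles) in each library (x axis), coloured by genotype. The sets lie closest in the 3 KO libraries of 1 week, mainly through the lower outputs (3.71 to 4.16 against 5.89 to 6.17 in WT).

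Whether the genotype difference itself differed between the times was fitted as an interaction over all 12 libraries. The effect on Dbp was higher at 1 month than at 1 week by 3.13 (SE 0.47) on the log2 scale and that on Per2 by 3.57 (SE 0.91), and the values of the 5 outputs were all positive, the smallest being 0.66 for Nr1d1. Of the other 5 genes, Npas2 had the same sign, at 1.15 (SE 1.10), and Clock (-1.19, SE 0.42), Nfil3 (-1.11, SE 0.48), Cry1 (-0.84, SE 0.59) and Arntl (-0.48, SE 0.83) the opposite one. None of the 10 passed among the 13122 genes, of which 0% were called by edgeR and 2611 (19.9%) had an unadjusted p under 0.05. DESeq2 called 917 genes (6.99%), with Dbp and Per2 among them. These differences are made of the contrasts that chose the genes and are given as a description.

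The rest of the loop was described from a list of 10 further genes. Like the lists below, it was chosen with earlier results of these data known, so its comparison with all genes is a description. At 1 week 8 of the 10 genes were lower in KO and 2 higher, with a median log2 fold change of -0.63 against 0.02 over all genes tested. None passed with edgeR, 5 had an unadjusted p under 0.05 (15.5% of all genes), and DESeq2 called 2, Bhlhe41 and Ciart, beside 7.5% of all genes. Bhlhe41 (chromosome 6), an E-box repressor, had 36.1, 31.4 and 23.8 CPM in WT and 8.96, 5.38 and 3.36 CPM in KO, which gave a fitted log2 ratio of KO to WT of -2.32 (SE 0.44, with an edgeR adjusted p of 0.107).
Ciart (chromosome 3, listed as Gm129), a repressor of CLOCK and BMAL1 with 3 E-boxes in its promoter window, was counted 14, 36 and 12 times in the WT libraries and 0, 2 and 0 times in KO. E-boxes were also found for Bhlhe41 and Per1, and for none of the other loop genes with a window. Nr1d2, the paralog of Nr1d1, had 99.7 to 126 CPM in WT and 37.0 to 70.3 CPM in KO, and Hlf, the remaining PAR bZIP gene, had 11 to 14.6 and 2.37 to 6.66 CPM. Cry2 had 47.0 to 57.3 CPM in WT and 23.3 to 38.8 CPM in KO. For 5 genes (Bhlhe41, Ciart, Nr1d2, Hlf and Cry2) no KO library reached a WT library, beside 13.4% of all genes in that direction. Without KO replicate 3, edgeR called Bhlhe41 and 2.45% of all genes.

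The paralogs thus did not all follow the same side. Cry2 was lower at 1 week, with a log2 fold change of -0.71 (SE 0.30), where Cry1 was higher at 1.08 (SE 0.43). Per1, which also answers acute stimuli, had 15.2 to 19.3 CPM in WT and 11.5, 20.5 and 2.57 CPM in KO, overlapping where Per2 and Per3 did not. Rora and Rorb were at -0.07 (SE 0.50) and -0.04 (SE 0.50), Bhlhe40 at 0.29 (SE 0.71) and Arntl2 at 1.01 (SE 0.63), all with overlap.

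At 1 month 8 of these 10 genes passed the filter on low counts, 5 lower and 3 higher in KO, with a median of -0.27 against -0.01 over all genes. None passed with edgeR, 2 had an unadjusted p under 0.05 (21.5% of all genes), and DESeq2 called 0, beside 6.43% of all genes. Bhlhe41 had the lowest value of the 8, at -1.55 (SE 0.46, edgeR adjusted p 0.0865), with 6.53, 12.2 and 2.24 CPM in WT and 2.30, 2.80 and 1.37 CPM in KO, so that WT replicate 3 overlapped. Nr1d2 was at -0.60 (SE 0.20) and was lower without overlap, like Nr1d1 and 6.71% of all genes. Per1 had 10.1, 16.9 and 24.0 CPM in WT and 43.0, 47.4 and 15.8 CPM in KO, differing by 1.77 in batch 2 and by -0.60 in batch 3, the same change of direction as Per2. In batch 2 alone, with 2 libraries of each genotype, edgeR called Bhlhe41 and Per1 among the 10, as it did without KO replicate 3, and Nr1d2 with them without WT replicate 3. In these settings 12.2%, 12.3% and 12.3% of all genes were called, so nothing is read from 2 or 3 calls among 10 genes. All 3 settings rest on the genotype contrast within batch 2.

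**Figure D5:**
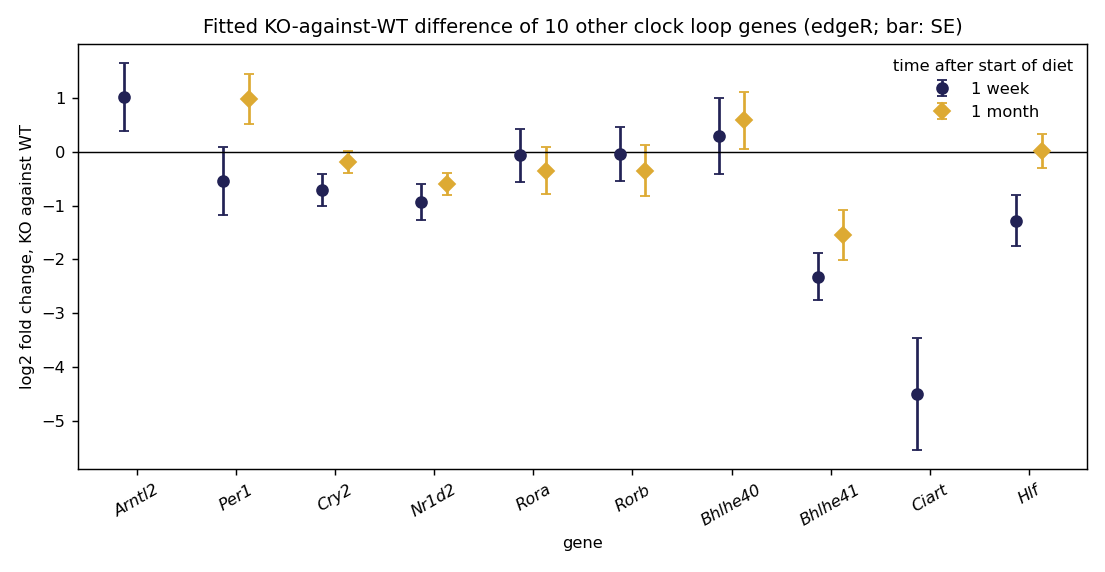
Fitted log2 fold change of KO against WT (y axis) of the 10 other clock loop genes (x axis) at 1 week (circles) and 1 month (diamonds), with bars of 1 SE. Bhlhe41 is low at both times (-2.32 and -1.55) and Per1 lies on opposite sides of 0, while the value of Ciart at 1 week depends on the prior count because its KO libraries hold at most 2 counts, and Arntl2 and Ciart were not tested at 1 month.

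Genes that modify the clock did not share a direction. Of 17 kinases, ubiquitin ligase parts and other modifiers, 16 were tested at 1 week, 8 higher and 8 lower in KO, with a median of 0.05. With edgeR 0 passed, 3 had an unadjusted p under 0.05 (15.5% of all genes), and DESeq2 called 1, Timeless, beside 7.5% of all genes. The smallest p belonged to Timeless at 1.84 (SE 0.53), Usp2 at 2.70 (SE 0.93) and Btrc at -0.98 (SE 0.39). Usp2, a deubiquitinase that cycles in many tissues, had 13.4, 17.2 and 13.3 CPM in WT and 22.2, 24.8 and 236 CPM in KO, the last in the library that stood apart. At 1 month 9 of 16 were higher and 7 lower, and 0 passed with edgeR. An unadjusted p under 0.05 was found for 3 (21.5% of all genes), and DESeq2 called 0, beside 6.43% of all genes. The smallest p belonged to Nono at 0.58 (SE 0.20), Prkaa1 at 0.66 (SE 0.26) and Gsk3b at -0.49 (SE 0.21).

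Among 13 transcripts known to cycle in many tissues, 12 were tested at each time. At 1 week 7 were higher and 5 lower, and 0 passed with edgeR. An unadjusted p under 0.05 was found for 3 (15.5% of all genes), and DESeq2 called 1, Lonrf3, beside 7.5% of all genes. The smallest p belonged to Lonrf3 at 1.08 (SE 0.32), Leo1 at 1.07 (SE 0.33) and Tspan4 at 2.03 (SE 0.83), which was 0.24 without KO replicate 3. At 1 month 2 of the 12 passed with edgeR, both lower in KO, beside 1.22% of all genes called lower. DESeq2 called 3, these 2 and Klf9, beside 6.43% of all genes. Wee1 (a kinase that delays entry into mitosis and a target of CLOCK and BMAL1) had 68.6, 58.8 and 31.9 CPM in WT and 35.0, 19.4 and 10.2 CPM in KO, which gave a fitted log2 ratio of KO to WT of -1.34 (SE 0.26, with an edgeR adjusted p of 0.0250). Tspan4, a tetraspanin, had 132, 100.1 and 44.4 CPM in WT and 57.8, 44.1 and 27.5 CPM in KO, with -1.01 (SE 0.22, adjusted p 0.0334). Both overlapped between the genotypes across batches while each KO library was below the WT libraries of its own batch, and both calls were lost without the batch covariate, without WT replicate 1 or 2 and without KO replicate 2 (adjusted p up to 0.558 for Wee1 and 0.597 for Tspan4). Tspan4 was also lost without KO replicate 1.

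Signals that can reset peripheral clocks were set beside these values. Of 9 glucocorticoid targets, 5 were higher and 4 lower in KO at 1 week (median 0.16), and of 7 temperature-responsive genes 4 were higher and 3 lower (median 0.36). Of 8 immediate early genes, 7 were higher and 1 lower (median 1.59). At 1 month the medians were 0.30, 0.10 and 0.28. With edgeR 0 of these genes passed at either time. Of the 3 lists 2, 2 and 4 genes had an unadjusted p under 0.05 at 1 week (15.5% of all genes). At 1 month, when 6 immediate early genes were tested, the numbers were 1, 2 and 1 (21.5% of all genes). DESeq2 called Zbtb16, Hsph1 and 3 immediate early genes (Atf3, Egr1 and Fosb) at 1 week, beside 7.5% of all genes. It called Klf9, Hspa1b and Egr1 at 1 month, beside 6.43% of all genes.

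The genes whose levels followed the distance between the sets most closely were ranked among 11568 genes outside the 10, by Pearson's r over the 12 libraries after centring within each batch. Highest were Sardh (r = 0.959), Pde1b (0.957) and Vcan (0.952), and lowest were 4930452B06Rik (-0.992), D19Ertd737e (-0.958) and Tomm40 (-0.957). The Y-linked Eif2s3y (-0.946) and Uty (-0.945) were the next lowest, with 0 counts in all KO libraries of 1 week and in KO replicate 3 of 1 month. The points share the split of genotypes at 1 week, which is also the split by Xist, so these correlations describe the 12 libraries only. Of the 8 other loop genes with enough counts, Hlf (-0.84), Cry2 (-0.79) and Bhlhe41 (-0.782) followed the distance most closely, all in the negative direction.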

How the data were processed

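Peeled urothelium of 12 mice was profiled as total RNA with a 3′-end kit that keeps the sense strand (QuantSeq FWD), per the labels' protocols, which name the strand-aware HTSeq setting. The deposited tables, 1 per time, hold raw counts per gene symbol, checked to be whole numbers with unequal totals. Bowtie, TopHat, HTSeq, DESeq2 and mm10 are named, with no roles, in the submitters' processing notes. The annotation is not given in the sources used here. Replicates were numbered in accession order. A title and a library name of WT replicate 3 at 1 month carry different animal numbers, and its column was matched through the library name. Counts of each 2 replicates differed by more than sampling noise.

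Genes were tested with the quasi-likelihood method of edgeR 4.0.16 (R 4.3.3, limma 3.58.1) with TMM scaling, robust dispersions and edgeR's own filter for low genes. Tests were two-sided, p-values were adjusted by Benjamini-Hochberg across every gene in the fit, and 0.05 was the limit. The 6 libraries of a time were fitted together, at 1 month with a batch term, and all 12 were fitted for the interaction. The standard error is the absolute log2 fold change over the square root of F. Log2 CPM used a prior count of 2, within-batch differences included. Alternatives were other scaling, other filters, DESeq2 1.42.0, dispersions without the robust option, no batch covariate, batch 2 alone and leaving out each replicate. The steps were tested on simulated data.

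The members and lists were chosen with earlier results of these data known. Named were the 10 members, Stag2 and Xist, 10 further loop genes, called genes and the 3 with the smallest p of the modifier and cycling lists, and the genes most like the pattern (the 5 highest and 5 lowest r, mean of at least 20 counts). Egr1 was named as the immediate early gene with the smallest p. Symbols altered by a spreadsheet were left as deposited. Gene chromosomes come from GENCODE M21 (GRCm38). 1 further clock gene was left out of the loop list and is not reported here.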

Additional observations from a re-analysis of the deposited data

Results flagged for a closer look

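Btrc, a substrate-binding part of the ubiquitin ligase that degrades PER proteins, drew attention because its genotypes did not overlap at either time and lay in opposite directions. Of all genes tested, 13.4% were lower without overlap at 1 week and 6.42% higher at 1 month. The members and the loop, modifier and cycling lists were all searched for such a reversal, and only Btrc showed it. The share of all genes with such a reversal was not counted, so nothing is read from a single gene among those searched. Btrc had 28.6, 30.3 and 27.2 CPM in WT and 22.0, 11.2 and 9.5 CPM in KO at 1 week, and 32.6, 31.2 and 32.0 CPM in WT and 40.5, 37.2 and 36.1 CPM in KO at 1 month. The effect at 1 month minus that at 1 week was 1.25 on the log2 scale, and edgeR's interaction test gave an adjusted p of 0.172, so the difference between the times did not pass (0.0377 to 0.362 over 18 alternatives, of which 1 passed). Groups of 3 libraries are too small for a check of single outlying samples.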

How the results depend on the processing

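No paired analysis was possible because the replicate numbers were given in accession order and pair no animals. Over all genes, edgeR called 8 at 1 week, 269 at 1 month (121 higher and 148 lower) and 0 in the interaction. Without a filter the numbers were 62, 1276 and 137, and with DESeq2 957, 781 and 917. Library-size scaling gave 561 at 1 month (456 higher and 105 lower), where it moved the median log2 fold change of all genes to 0.215. Without the batch covariate 0 were called, and in batch 2 alone 1474. Leaving out a replicate gave between 0 and 320 calls at 1 week, 45 and 1522 at 1 month, and 0 and 440 in the interaction. At 1 week the highest number was without KO replicate 3, and at 1 month the higher numbers were without a batch 3 library. A lone library left in batch 3 adds nothing to the genotype contrast.

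The genotype difference in the distance between the sets at 1 week was 2.35 without Dbp, against 2.64. Leaving out any single replicate gave 2.56 to 2.75. The sets were chosen on this contrast, so its stability is a description only. At 1 month leaving out a replicate gave -0.23 to 0.76, against 0.38, so its direction rests on WT replicate 3. The log2 fold changes of the 5 outputs, Nfil3, Cry1, Clock and Arntl at 1 week kept their sign under all 12 alternatives, and Npas2 turned under 1. At 1 month Cry1 and Dbp turned under 3 of 14 and Per2 under 1, the fit without batch (-0.07), while batch 2 alone gave Per2 2.35. The cause of these changes was not tested. Depth limits Arntl, Npas2 and Ciart, which had 7 to 46, 0 to 41 and 0 to 36 counts per library. It also limits Per2 at 1 month, which had 2 and 12 counts in WT replicates 1 and 2.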
